A study of Mus musculus with 20 samples.

Results

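The mitochondrial ribosomal protein genes were taken as every gene of the expression table whose symbol starts with Mrpl (large subunit) or Mrps (small subunit), followed by a number and at most 1 letter. The rule found 78 of the 11856 genes, 49 of the large and 29 of the small subunit, and used no measured value. Input RNA and RNA enriched by immunoprecipitation of N6-methyladenosine (m6A) had been sequenced from the hearts of 5 db/db and 5 db/+ mice of the strain C57BL/6, and the comparison asked how transcript levels and m6A marks differ between diabetic and healthy hearts. The db allele disables the leptin receptor: db/db mice, with the allele on both chromosomes, become obese and diabetic, and db/+ mice carry 1 copy. Although the genotype field has wild type for the db/+ mice, the titles, which give db/+, were followed. Each library held poly(A)-selected RNA from the heart of 1 animal, and age and sex were not used here. Expression is given as FPKM (fragments scaled to transcript length and to library size), which sets levels of different genes on a scale per length, and m6A as the peaks listed for each animal.

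Mitochondrial ribosomes translate the few messenger RNAs of the mitochondrial genome, all of which encode subunits of the respiratory chain and the ATP synthase. Their RNA comes from the mitochondrial genome, while every one of their proteins is encoded in the nucleus, made in the cytosol and imported. Many of these proteins descend from bacterial ribosomal proteins and others were added in the course of mitochondrial evolution, and the heart, with its dense mitochondria, depends on them. In messenger RNA, m6A is set by a methyltransferase complex and is known to be most common around the stop codon and in the 3′ untranslated part.

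All 78 genes averaged 1 FPKM or more over the 10 hearts, the filter for testing, as did 10344 genes in all. Their mean levels ran between 2.18 FPKM for Mrps10 and 90.5 FPKM for Mrpl12, with a median of 18.8 FPKM against 3.91 FPKM over the whole table, and 71 of 78 reached 5 FPKM. The median was 19.7 FPKM over the large and 12.6 FPKM over the small subunit. Mrpl12, the stalk protein to which translation factors dock, stood first with 86.4 ± 4.24 FPKM in db/db and 94.6 ± 12.6 FPKM in db/+ hearts (SD, n = 5 each). It was followed by Mrpl18 with 79.7 ± 3.30 FPKM in db/db and 82.4 ± 9.10 FPKM in db/+ hearts and by Mrpl34 with 64.6 ± 5.40 and 71.2 ± 11.1 FPKM in db/db and db/+ hearts. In the small subunit the highest means over the 10 hearts were 63.5 FPKM for Mrps21, 39.8 FPKM for Mrps28 and 38.4 FPKM for Mrps36. The protein of Mrps36 is known also as a component of the oxoglutarate dehydrogenase complex. In db/db hearts the means of Mrpl12 and Mrpl18 differed by more than either SD, though their ranges overlapped, and in db/+ hearts by less than the SD of Mrpl12. Mrpl34 lay below Mrpl18 in every db/db heart and overlapped it in db/+ hearts. Mrps21 had 57.3, 53.2, 44.8, 63.3 and 100.3 FPKM in the db/db hearts and 51.5 to 68.6 FPKM in the db/+ hearts, so that its highest value was that of a single heart, db/db 5. At the low end stood Mrpl17 with 3.27 FPKM, Mrpl32 with 4.08 FPKM and Mrpl15 with 4.54 FPKM in the large subunit, and Mrps10, Mrps17 with 3.61 FPKM and Mrps25 with 4.98 FPKM in the small.

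Against db/+ hearts, 7 of the 78 genes were lower in db/db hearts and 0 were higher by a limma fit with a Benjamini-Hochberg threshold of 0.05, over all 10344 genes. At an unadjusted p under 0.05 there were 21 in either direction, against 1994 of all 10344 genes. The threshold of 0.05 on the adjusted p was passed by 3.01% of all genes in either direction and by 1.72% as lower in db/db, against 8.97% of the mitochondrial ribosomal protein genes. The 7 were Mrpl21, Mrpl37, Mrpl23 and Mrpl9, named for the large subunit, and Mrps30, Mrps27 and Mrps7, named for the small. The mean of the db/db hearts was between 0.748 of the db/+ mean for Mrpl21 and 0.846 for Mrpl9. All p-values measure the spread between these animals.

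Mrpl21, which has a counterpart in the bacterial large subunit, lies at chr19:3282901-3292837 on the + strand, in positions of the build GRCm38 as for all genes and peaks here. It had 16.5, 15.1, 15.3, 17.1 and 15.7 FPKM in the db/db hearts, against 21.2, 19.6, 20.5, 20.6 and 24.9 FPKM in the db/+ hearts. The highest db/db heart lay below the lowest db/+ heart. Its log2 fold change was -0.39 (SE 0.07, adjusted p = 0.0155 in limma). Mrpl21 passed the threshold without each of the 10 hearts in turn and under every scaling tried, with adjusted p between 0.0102 and 0.0883 over the 19 alternatives. It missed the threshold with the mitochondrial share as a covariate and with a replicate block.

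Mrps30 lies at chr13:118378381-118387252 on the - strand, and its protein, though named for the small subunit, sits in the large one. It had 4.875, 4.891, 4.873, 4.744 and 4.835 FPKM in the db/db hearts, against 5.554, 6.255, 5.751, 6.501 and 6.027 FPKM in the db/+ hearts. The db/db hearts were close together, with an SD of 0.0594 FPKM against 0.380 FPKM in db/+ hearts, and the groups did not overlap (log2 fold change -0.26, SE 0.06, adjusted p = 0.0362). Mrpl37, a protein of the large subunit with no bacterial counterpart, lies at chr4:107055874-107066868 on the - strand. Its values were 10.2, 10.3, 11.1, 10.9 and 10.7 FPKM in the db/db hearts, against 12.6, 12.4, 12.2, 13.7 and 12.8 FPKM in the db/+ hearts, again without overlap (log2 fold change -0.24, SE 0.06, adjusted p = 0.0444).

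Mrpl23, whose bacterial counterpart lies at the exit of the tunnel for the growing protein chain, is at chr7:142532686-142540747 on the + strand. It averaged 7.01 ± 0.361 FPKM in db/db and 8.59 ± 0.461 FPKM in db/+ hearts, with all db/db hearts between 6.44 and 7.39 FPKM and all db/+ hearts between 7.81 and 8.98 FPKM (log2 fold change -0.26, SE 0.06, adjusted p = 0.045). A pseudogene of Mrpl23 is named in the mouse gene tables, and the treatment of shared reads is not stated in the labels. Mrpl9, of the large subunit and with a bacterial counterpart, lies at chr3:94443318-94451130 on the + strand. Values of 19.7, 19.5, 21.1, 21.7 and 21.5 FPKM in the db/db hearts stood against 24.4, 24.2, 23.6, 24.4 and 25.5 FPKM in the db/+ hearts (log2 fold change -0.23, SE 0.05, adjusted p = 0.0462). The highest db/db heart was below the lowest db/+ heart here too.

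Mrps27, a pentatricopeptide repeat protein of the small subunit without a bacterial counterpart, lies at chr13:99344786-99415562 on the + strand. Db/db hearts had 15.7, 16.4, 15.5, 15.2 and 17.3 FPKM, against 19.3, 18.2, 21.3, 18.6 and 22.6 FPKM in the db/+ hearts (log2 fold change -0.30, SE 0.07, adjusted p = 0.0465). Mrps7, a protein of the head of the small subunit with a bacterial counterpart, lies at chr11:115603925-115608036 on the + strand. It had 24.44, 21.99, 24.41, 24.97 and 24.98 FPKM in the db/db hearts, against 29.01, 26.79, 28.34, 31.62 and 32.36 FPKM in the db/+ hearts (log2 fold change -0.28, SE 0.07, adjusted p = 0.0466). In both genes all db/db hearts lay below all db/+ hearts.

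**Figure D1:**
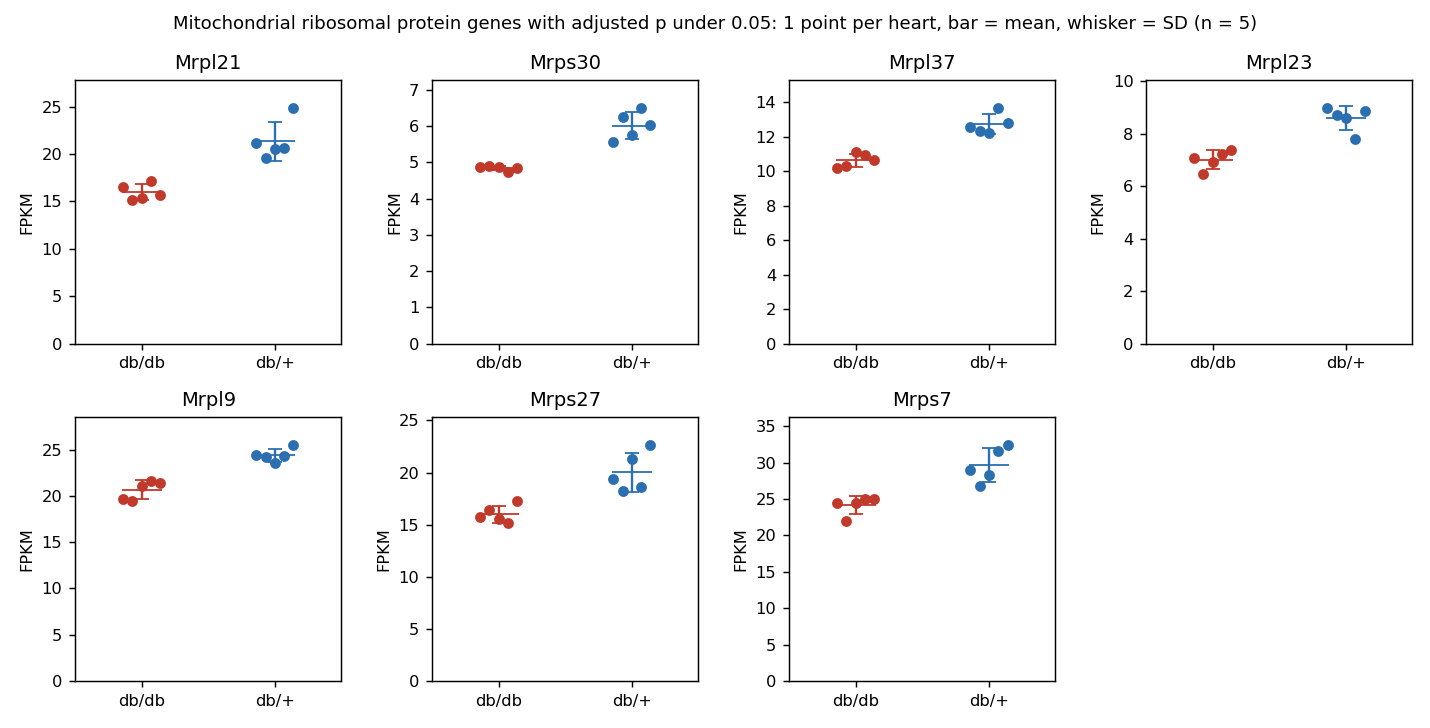
FPKM of the 7 mitochondrial ribosomal protein genes with an adjusted p under 0.05, 1 panel per gene, with 1 point per heart, the mean as a bar and the SD as whiskers (db/db in red on the left, db/+ in blue, n = 5 each). In every panel the highest db/db heart lies below the lowest db/+ heart, and the vertical axes start at 0.

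The 6 calls other than Mrpl21 were not stable. With FPKM rescaled over the nuclear genes, with library medians set equal or with quantile normalization, Mrpl21 remained as the single call among the 78, and with the mitochondrial share as a covariate there were 0. Leaving out 1 heart left 1 to 3 calls. Mrps30 passed without db/+ 1 (adjusted p = 0.0417) and without db/+ 5, Mrps27 without db/db 5 and without db/+ 2, Mrps7 without db/+ 2 and Mrpl23 without db/+ 4, while Mrpl37 and Mrpl9 missed the threshold without any 1 heart. All 7 kept a negative log2 fold change under each of the 19 alternatives. As their groups did not overlap, only the 3 scalings and the covariate could have turned the sign.

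Promoters of 4 of the 7, and that of Mrps11, which shares 141 bases with the window of its neighbour Mrpl46, are shown because they hold matches to the binding motifs of factors known to act on nuclear genes for mitochondria: NRF1 (GCGCANGCG), the ETS family with GABPA (CCGGAAG) and YY1 (AAGATGGCG). Each window is the RefSeq sequence on the build GRCm38.p6, 250 bases before to 50 after the annotated start, read 5′ to 3′ along the gene, with matches on either strand in capitals. Mrpl21 (chr19:3282792-3283091, + strand) and Mrps27 (chr13:99344536-99344835, + strand) hold the ETS motif on the reverse strand, and Mrps27 also YY1. Mrpl37 (chr4:107066817-107067116, - strand) holds YY1. Mrpl9 (chr3:94443086-94443385, + strand) holds 2 NRF1 matches on opposite strands that overlap in 1 run. Mrps11 (chr7:78782881-78783180, + strand) holds YY1 on the reverse strand, and the window of Mrpl46 holds none of the motifs.
Mrpl21: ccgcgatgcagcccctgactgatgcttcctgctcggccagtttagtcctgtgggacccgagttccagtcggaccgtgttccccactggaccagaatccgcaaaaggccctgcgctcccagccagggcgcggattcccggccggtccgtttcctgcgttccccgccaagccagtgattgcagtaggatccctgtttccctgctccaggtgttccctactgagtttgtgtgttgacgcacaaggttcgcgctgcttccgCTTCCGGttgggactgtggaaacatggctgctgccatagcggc
Mrps27: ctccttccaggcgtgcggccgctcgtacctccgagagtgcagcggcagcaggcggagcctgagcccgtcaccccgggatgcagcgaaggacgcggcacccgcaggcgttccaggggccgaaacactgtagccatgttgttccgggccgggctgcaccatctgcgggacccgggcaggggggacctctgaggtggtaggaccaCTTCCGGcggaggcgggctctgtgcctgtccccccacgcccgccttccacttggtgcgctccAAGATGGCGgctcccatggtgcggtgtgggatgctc
Mrpl37: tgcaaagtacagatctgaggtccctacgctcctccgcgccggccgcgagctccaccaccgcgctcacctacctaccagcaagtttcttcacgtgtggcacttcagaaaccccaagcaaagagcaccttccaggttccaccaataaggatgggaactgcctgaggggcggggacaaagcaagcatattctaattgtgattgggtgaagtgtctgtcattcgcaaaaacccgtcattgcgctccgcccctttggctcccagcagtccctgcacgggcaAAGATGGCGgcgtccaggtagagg
Mrpl9: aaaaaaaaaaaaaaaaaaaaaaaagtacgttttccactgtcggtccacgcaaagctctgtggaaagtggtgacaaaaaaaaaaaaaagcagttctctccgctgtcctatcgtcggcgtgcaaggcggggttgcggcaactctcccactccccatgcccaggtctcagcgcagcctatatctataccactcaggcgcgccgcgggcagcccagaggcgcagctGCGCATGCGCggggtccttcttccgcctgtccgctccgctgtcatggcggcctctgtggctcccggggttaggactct
Mrps11: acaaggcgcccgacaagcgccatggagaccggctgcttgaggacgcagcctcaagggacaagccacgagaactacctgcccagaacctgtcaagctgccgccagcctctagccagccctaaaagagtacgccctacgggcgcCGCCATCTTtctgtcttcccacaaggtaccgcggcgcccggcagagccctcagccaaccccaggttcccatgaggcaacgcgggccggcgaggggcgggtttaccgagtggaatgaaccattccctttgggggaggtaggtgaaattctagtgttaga

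Over the family, 69 of the 78 genes had a promoter window, and for 47 of them its start lay within 50 bases of the deposited 5′ end. At least 1 of the 3 motifs was found in 40 of the 69 windows (58.0%), against 31.6% of the windows of the other 9124 genes of the table with one and 15.3% of the 27025 windows in all. The ETS motif was in 24 of 69 (34.8%), against 18.5% of the other genes of the table and 9.17% of all windows. NRF1 was in 16 of 69 (23.2%), against 14.1% and 6.41% in the same sets, and YY1 in 8 of 69 (11.6%), against 3.27% and 1.49%. Of the 43 large subunit windows 27 held a motif, and of the 26 small subunit windows 13 did. The annotated start lay 346 bases from the deposited 5′ end for Mrpl23 and 141 bases from it for Mrpl21. Mrpl23, Mrps30 and Mrps7 had none of the 3 motifs in these windows. These are matches of letters and give no account of binding.

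Next to the 7 stood 8 more genes whose db/db and db/+ values did not overlap but whose adjusted p missed the threshold. In all, 15 of 78 (19.2%) had every db/db heart below every db/+ heart, 10 of the large and 5 of the small subunit, and 0 had every db/db heart above. Over all tested genes 6.41% did not overlap in either direction and 4.18% were lower in db/db without overlap. Mrpl46 had 19.9, 17.3, 18.5, 20.2 and 19.4 FPKM in the db/db hearts, against 23.0, 23.8, 20.9, 23.6 and 30.1 FPKM in the db/+ hearts (log2 fold change -0.32, SE 0.09, adjusted p = 0.0777). Its neighbour Mrps11 starts head to head with it, on the opposite strand, and their spans share 413 bases. Mrps11 averaged 7.03 ± 0.573 FPKM in db/db and 7.76 ± 0.959 FPKM in db/+ hearts, with overlap (log2 fold change -0.12, SE 0.09, adjusted p = 0.464). Mrps15, a small subunit protein with a bacterial counterpart, averaged 22.6 ± 1.31 FPKM in db/db and 28.3 ± 3.31 FPKM in db/+ hearts (log2 fold change -0.31, SE 0.08, adjusted p = 0.0626). For Mrpl55 the means were 38.0 ± 3.78 FPKM in db/db and 47.8 ± 5.92 FPKM in db/+ hearts (log2 fold change -0.32, SE 0.09, adjusted p = 0.0847). In both the db/+ 5 heart was the highest of the 10.

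Across the family the log2 fold changes were small and mostly negative. Of the 78, 65 were below 0 (83.3%), against 57.6% of all tested genes, and the median was -0.12 against -0.03 over all genes. The quartiles were -0.19 and -0.04. The large subunit had 41 of 49 below 0 with a median of -0.13, and the small subunit 24 of 29 with a median of -0.10. Genes with a bacterial counterpart (38 of 46 below 0, 4 called) and genes without one (27 of 32 below 0, 3 called) had medians of -0.12 and -0.13. Without db/+ 5 the median of the 78 was -0.07, that of the large subunit -0.07 and that of the small -0.10, so the order of the subunits turned with that heart, as it did with the mitochondrial share as a covariate (-0.05 and -0.06 for the large and the small). For all 78 the covariate gave a median of -0.06, with 54 below 0. Under the 3 other scalings 61 or 62 were below 0, with a median of -0.09.

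**Figure D2:**
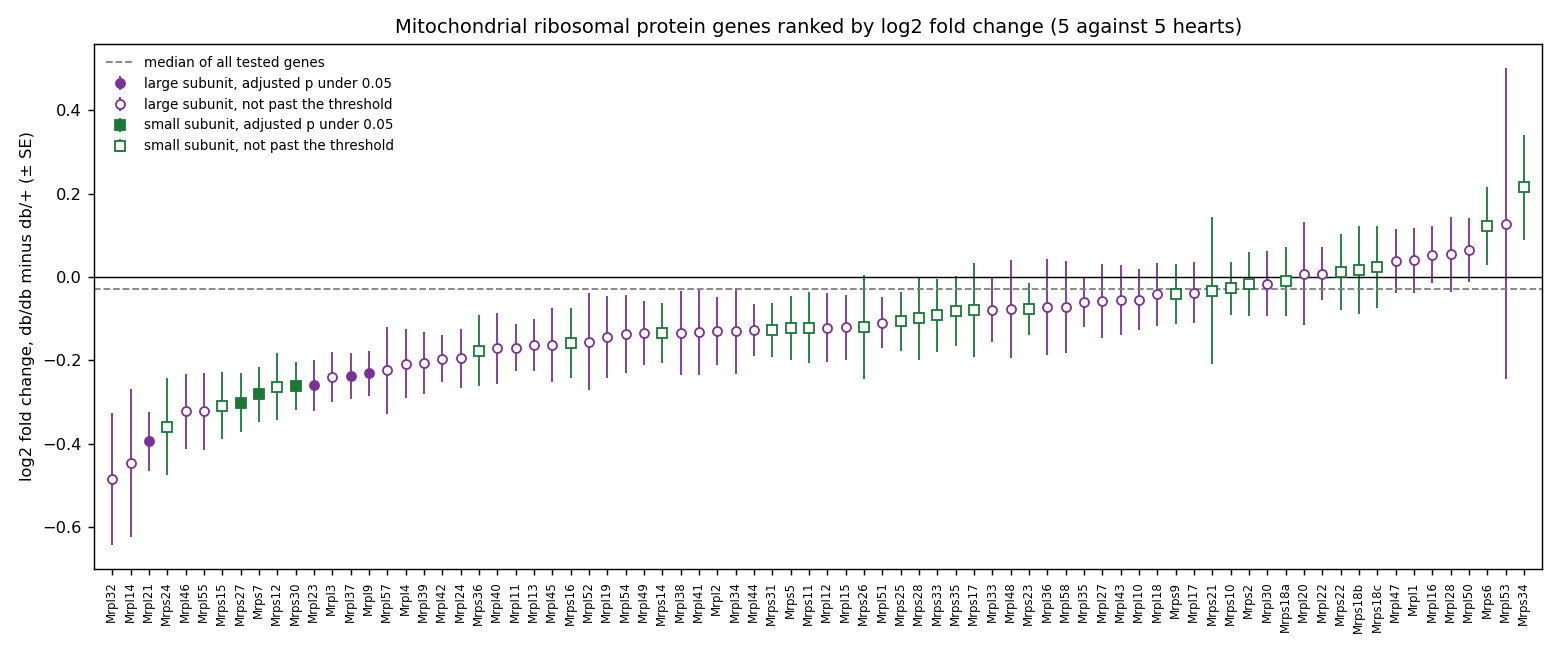
Log2 fold change (db/db minus db/+, with SE) of the 78 genes in rank order. Circles are large and squares small subunit genes, filled where the adjusted p was under 0.05, and the dashed line is the median of all tested genes. The 7 filled points lie in the left part of the plot among open points, and 13 genes lie above 0.

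The outermost values belonged to genes with wide spreads. Mrpl32, of the large subunit, had the most negative log2 fold change (-0.49, SE 0.16, adjusted p = 0.123). Its values were 3.20, 2.77, 3.29, 3.47 and 3.10 FPKM in the db/db hearts, against 3.10, 6.15, 3.58, 6.08 and 6.04 FPKM in the db/+ hearts, so that db/+ 2, 4 and 5 stood near 6 FPKM and every other heart of either genotype near 3 FPKM. Without db/+ 1 it passed the threshold. Mrpl14 had 29.3, 25.7, 40.3, 31.5 and 29.8 FPKM in the db/db hearts, against 47.1, 46.0, 52.7, 47.3 and 25.7 FPKM in the db/+ hearts (log2 fold change -0.45, SE 0.18, adjusted p = 0.197). The low value was that of db/+ 5, and without that heart the groups did not overlap and Mrpl14 passed the threshold.

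At the other end, the 6 most positive values were those of Mrps34, Mrpl53, Mrps6, Mrpl50, Mrpl28 and Mrpl16, and their groups overlapped in every case. Mrps34 had 15.41, 22.02, 15.47, 15.17 and 14.92 FPKM in the db/db hearts, against 12.58, 16.61, 11.95, 12.82 and 16.76 FPKM in the db/+ hearts (log2 fold change 0.21, SE 0.13, adjusted p = 0.371). Its span shares 1003 bases with Nme3 on the same strand and lies wholly within Mapk8ip3 on the opposite strand. Mrpl53 lies wholly within Gm42688 on the same strand and ranged between 8.36 and 36.4 FPKM in db/db and between 8.09 and 24.8 FPKM in db/+ hearts. Such overlaps touch 20 of the 78 genes, 4 of them on the same strand, and whether the authors counted by strand is not stated in the labels. The 58 genes that overlap no other had 49 values below 0, a median of -0.12 and 5 of the 7 calls, and the exceptions, Mrpl21 and Mrps7, share 117 to 127 bases with genes on the opposite strand.

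Mrps18a, Mrps18b and Mrps18c are paralogs whose proteins share an origin in a single bacterial protein, and that of Mrps18a sits in the large subunit. In the split by bacterial counterpart above, Mrps18c was counted as having one and Mrps18a and Mrps18b as having none. Mrps18c had the highest level of these paralogs, 21.7 ± 1.18 FPKM in db/db and 21.5 ± 3.36 FPKM in db/+ hearts. Mrps18a had 12.5 ± 1.43 FPKM in db/db and 12.5 ± 0.909 FPKM in db/+ hearts, and Mrps18b 9.0 ± 0.934 FPKM in db/db and 8.93 ± 1.45 FPKM in db/+ hearts. Log2 fold changes were 0.02 (SE 0.10) for Mrps18c, -0.01 (SE 0.08) for Mrps18a and 0.02 (SE 0.11) for Mrps18b, with adjusted p between 0.919 and 0.957. The order of the levels was the same in both genotypes, and the differences between the genotypes were below the SDs.

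Summed over the 78 genes, FPKM came to 1694, 1616, 1696, 1791 and 1766 in the db/db hearts, against 1878, 1817, 1806, 1813 and 2026 in the db/+ hearts. The groups did not overlap, with a gap between 1791 and 1806. As a percent of the FPKM of nuclear genes the sum was 0.863 to 0.959 in db/db and 0.926 to 0.989 in db/+ hearts, which overlap. The 13 mitochondrially encoded messenger RNAs, the templates of these ribosomes, took 42.0% to 44.7% of all FPKM in db/db and 33.5% to 43.3% in db/+ hearts. FPKM is relative to all fragments counted in a library, those of mitochondrial genes included. All 13 had a positive log2 fold change, with a median of 0.21 and 0 called. The median was 0.24 when rescaled over nuclear genes and with library medians set equal. Under quantile normalization it was 0.00, but that scaling gives each rank the same value in every heart. It can therefore hide a shift of the highest genes. Fewer cells of a type and less RNA per cell cannot be told apart in bulk hearts.

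The summed level of the large subunit divided by that of the small was 2.50, 2.46, 2.59, 2.45 and 2.29 in the db/db hearts, against 2.49, 2.39, 2.39, 2.49 and 2.61 in the db/+ hearts. The means of 2.46 ± 0.109 and 2.47 ± 0.0927 in db/db and db/+ hearts differed by less than their SDs. The ratio of the median genes of the subunits, which gives high genes less weight, was 1.52 to 1.55 in db/db and 1.62 to 1.84 in db/+ hearts, without overlap. The balance of the subunits therefore came out differently with the measure, and each median rests on the few genes in the middle of its list.

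The heart db/+ 5 stood apart. It had the highest value of the 10 hearts in 32 of the 78 genes, the lowest mitochondrial share (33.5%) and the largest sum over the large subunit (1465 FPKM). It also had the highest summed FPKM of the adipocyte markers, 65.0 against at most 37.9 in db/db hearts, and of the brown adipocyte markers, 175 against at most 73.2 in db/db hearts, and the highest of the cardiomyocyte markers. Other marker lists were highest in other hearts. The erythroid markers reached 3917 FPKM in db/db 4, the atrial 3104 FPKM in db/db 3 and the macrophage 515 FPKM in db/+ 2. Endothelial and fibroblast markers were highest in db/db 1 and db/db 2. Over the genotypes the 6 cardiomyocyte markers summed to 7296 to 8270 FPKM in db/db and 8043 to 10302.6 FPKM in db/+ hearts, with 1 of the 6 called. The 5 adipocyte markers had 0 called and the 2 brown adipocyte markers found in the table had 0 called, while Elovl3, a further one, is not listed in it. Of 5 skeletal muscle markers Myh1, Myh2 and Myh4 are not listed, and Acta1 and Ckm, which the heart also expresses, summed to 396 to 463 FPKM in db/db and 535 to 618 FPKM in db/+ hearts, without overlap and with 1 called. The part of these cells and of the mitochondrial share in the lower FPKM of the family was not tested, and the values without db/+ 5 and with the share as a covariate are those given above.

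**Figure D3:**
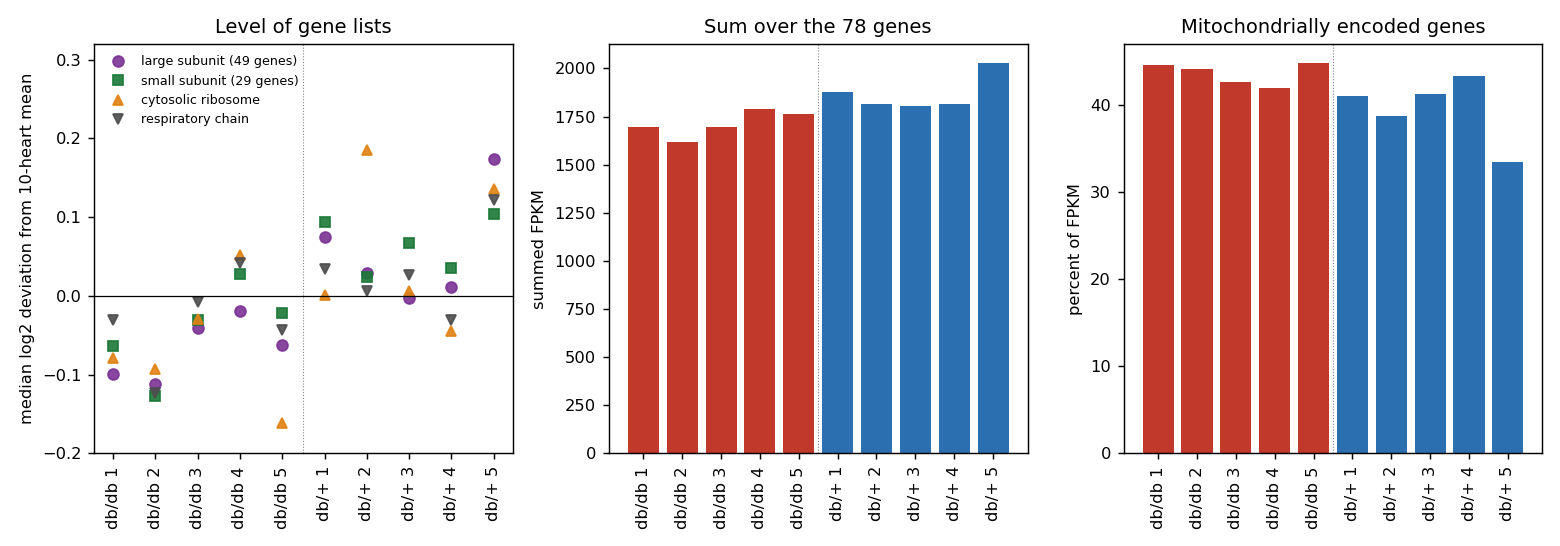
Values by heart, db/db hearts left of db/+ hearts (red and blue bars). The left panel gives the median log2 deviation of 4 gene lists (1 symbol each) from the mean over the 10 hearts, the middle panel the summed FPKM of the 78 genes and the right panel the percent of FPKM from mitochondrially encoded genes. The db/+ 5 heart has the highest sum, 2026 FPKM, and the lowest mitochondrial share, 33.5%.

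How far the genes moved together over the hearts was described by the median Pearson r of all 3003 pairs, on log2(FPKM + 1). It was 0.25 over the 10 hearts and 0.13 once the genotype means were removed, against 0.04 over all tested genes. The large subunit had 0.30, and 0.20 with the genotype means removed, and the small subunit 0.13 and 0.03. Without db/+ 5 the large subunit had 0.19 and the small subunit 0.18, and with the genotype means also removed 0.13 and 0.05. The cytosolic ribosomal protein genes, 81 in number, had 0.69, and 0.64 with the genotype means removed, and the 76 genes of the respiratory chain and ATP synthase 0.34 and 0.31. All pairs share the same libraries and their scaling, so these are descriptions without a test. Closest to the mean of the other genes, with the genotype means removed, were Mrpl12 (r = 0.94, and 0.91 without db/+ 5), Mrps26 (0.90) and Mrps28 (0.90), while Mrpl14 had the lowest value (-0.52, and 0.15 without db/+ 5) and Mrps30, among the called genes, had -0.21.

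Genes that act with the mitochondrial ribosome were read from lists chosen by function. Of 26 genes for ribosome assembly and rRNA modification, 3 were lower, 0 were higher and 25 had a negative log2 fold change, with a median of -0.15. Over all tested genes 1.72% were called lower and 57.6% were negative. With the mitochondrial share as a covariate the list had 0 calls, 18 negative values and a median of -0.07, and with the replicate block 0 calls. Without db/+ 5 it had 2 calls, 21 negative values and a median of -0.09. Mtg2, a GTPase of large subunit assembly, had 2.38, 2.84, 2.46, 2.75 and 2.71 FPKM in the db/db hearts, against 3.88, 3.60, 3.78, 3.15 and 4.27 FPKM in the db/+ hearts, without overlap (log2 fold change -0.38, SE 0.08, adjusted p = 0.023). Tfb1m, which methylates the rRNA of the small subunit, averaged 4.49 ± 0.455 FPKM in db/db and 6.43 ± 0.896 FPKM in db/+ hearts (log2 fold change -0.43, SE 0.09, adjusted p = 0.0314). Rpusd4, a pseudouridine synthase that acts on the rRNA of the large subunit, averaged 3.56 ± 0.252 FPKM in db/db and 4.86 ± 0.590 FPKM in db/+ hearts (log2 fold change -0.36, SE 0.08, adjusted p = 0.0429). Its groups overlapped by db/+ 1. Under the alternatives, Mtg2 passed in 12 of 18, Tfb1m in 7 of 19 and Rpusd4 in 5 of 18.

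The other lists had few or no calls. Of 16 translation factors 0 were called and 12 were negative, with a median of -0.06. Among them were Tufm, the elongation factor that brings tRNA to the ribosome, with 41.1 ± 1.13 FPKM in db/db and 49.9 ± 7.49 FPKM in db/+ hearts (adjusted p = 0.127) and the recycling factor Mrrf with 6.57 ± 0.713 FPKM in db/db and 8.38 ± 0.504 FPKM in db/+ hearts (adjusted p = 0.0505). Both had non-overlapping groups. Of 19 tested aminoacyl-tRNA synthetases and partners, which charge the mitochondrial tRNAs, 0 were called, with a median of -0.04. Of 12 tested regulators, Gabpa and Yy1 among them, 0 were called, with a median of -0.02. Nrf1 averaged 0.716 ± 0.275 FPKM in db/db and 0.674 ± 0.122 FPKM in db/+ hearts, below the filter, and was not tested. The 5 mitochondrial ribosomal proteins with other symbols, such as Dap3 and Ptcd3, had 0 calls and 4 negative values.

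For the nuclear genes of the respiratory chain and ATP synthase the counts were 1 lower of 76, which was the muscle cytochrome oxidase subunit Cox7a1, with 61 negative and a median of -0.07. Cytosolic ribosomal protein genes had 0 calls of 81, with 78 negative and a median of -0.12, the same as the mitochondrial ribosome. Under the 3 other scalings the median was -0.04 to -0.03 for the respiratory chain, with 52 negative, and -0.09 to -0.08 for the cytosolic ribosome, with 71 to 73 negative. That of the regulators was 0.01 when rescaled over nuclear genes and with library medians set equal. With the mitochondrial share as a covariate the cytosolic ribosome had a median of -0.03 with 52 of 81 negative and the respiratory chain -0.03 with 47 of 76 negative. In the same fit the synthetases were at 0.00 and the 5 proteins with other symbols at 0.07, and 1 translation factor, Tufm, was called. Over all tested genes 42.8% of the calls were higher in db/db, and 55.4% to 58.9% under the 3 scalings.

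The m6A peak lists, called by the authors per animal, held 141836 peaks after 5117 repeats of a position were removed, and 768 of them were set to 70 of the 78 genes. In the db/db hearts 58, 52, 47, 53 and 34 of the genes had a peak, against 49, 57, 48, 55 and 61 in the db/+ hearts. The genotypes overlapped, and the ends followed the length of the lists: db/db 5 had the shortest list with 8462 peaks and db/+ 5 the longest with 20021. In each heart the share of the family with a peak (43.6% to 78.2%) was above that of all genes of the table (23.6% to 52.3%) and of the 7761 genes whose level lay between those of Mrps10 and Mrpl12 (31.3% to 63.9%). Those 7761 genes share the range of the family but were not matched to it in level.

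A peak was listed in all 10 hearts for 30 genes (38.5%), against 17.7% of all genes of the table and 24.1% in the same range of levels, and in 8 or more hearts for 44 genes. Without db/db 5 the number with a peak in every heart was 37. For 11 genes (14.1%) it was listed in 5 to 7 hearts, for 15 (19.2%) in 1 to 4 hearts, and for 8 in none: Mrpl23, Mrpl3, Mrpl30, Mrps10, Mrps14, Mrps18b, Mrps21 and Mrps33. The median level was 20.7 FPKM for the genes with a peak in 8 or more hearts, 12.5 FPKM for 5 to 7 hearts, 18.5 FPKM for 1 to 4 hearts and 10.2 FPKM for none. The ranges of level overlapped: Mrps21 and Mrpl30, with 63.5 and 36.3 FPKM, had no peak in any heart, and Mrps25, with 4.98 FPKM, had one in all 10. Of the large subunit 46 of 49 genes had a peak in some heart, and of the small subunit 24 of 29.

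**Figure D4:**
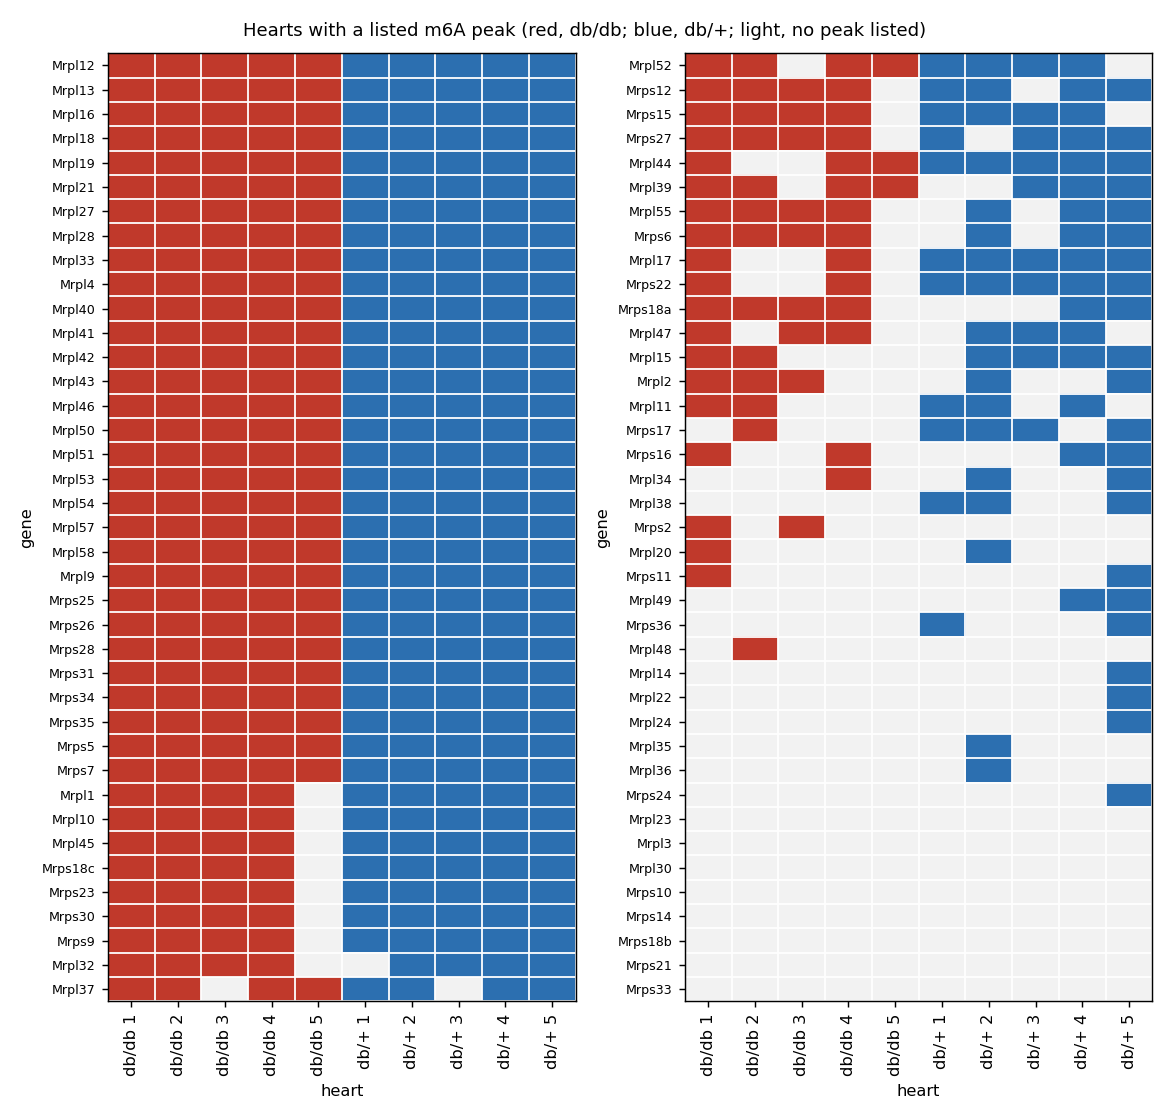
Presence of a listed m6A peak in each of the 10 hearts for the 78 genes (rows), ordered by the number of hearts with a peak; db/db hearts are the 5 columns on the left of each panel (red) and db/+ hearts the 5 on the right (blue). The top 30 genes have a peak in every heart, and the bottom 8 in none.

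The family's peaks had a lower median fold of immunoprecipitated over input signal than all peaks in each of the 10 lists (2.37 to 3.36 against 2.75 to 3.82). Taking the top peak of a gene in each heart and the median over the hearts, Mrpl40 stood highest with 15.7, with values between 4.38 and 35.6 over the hearts. Among the genes with a peak in all hearts it was followed by Mrps28 with 6.85, Mrpl19 with 6.68, Mrpl13 with 6.57, Mrps25 with 6.46, Mrpl12 with 5.58, Mrps7 with 5.36, Mrpl27 with 5.27, Mrpl9 with 4.81 and Mrpl46 with 4.21. Folds are the authors' own values for each peak and were not compared between lists. The stretch shared by all 10 hearts was 449 bases long in Mrpl12 (chr11:120488378-120488826), across the end of the coding and the start of the 3′ untranslated part. In Mrpl40 it was 90 bases (chr16:18872284-18872373), in Mrps28 175 bases (chr3:8802146-8802320) and in Mrps7 328 bases (chr11:115606966-115607293); the commonest annotation of the peaks of each was to coding and 3′ untranslated parts together. In Mrpl21, the gene with the smallest adjusted p, it was 120 bases (chr19:3291082-3291201).

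By part of the transcript, 365 of the 768 peaks (47.5%) ran over coding and 3′ untranslated sequence, against 16.8% of the peaks of all other genes. A further 344 (44.8%) lay in the 3′ untranslated part, against 36.4%, and 57 (7.42%) in coding sequence alone, against 43.1%, while 2 touched the 5′ untranslated part. The share of peaks over both parts was 43.8% to 55.1% in db/db and 34.0% to 54.2% in db/+ hearts, and it was above that of all genes in every heart (14.7% to 18.7%). In db/+ 5 the 3′ untranslated part held 62.8% of the peaks of the family and 47.2% of all peaks, in both cases the highest share of the 10 hearts. Transcripts with peaks were shorter in this family, with a median RNA length by heart of 1216 to 1418 bases against 3162 to 3512 bases over all peaks. Among transcripts of at most 1500 bases the share of peaks over both parts was 32.1% to 60.0% for the family and 28.2% to 31.2% for other genes, higher for the family in 10 of 10 hearts. Several peaks of a heart can belong to 1 gene, so these shares count peaks and not genes.

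**Figure D5:**
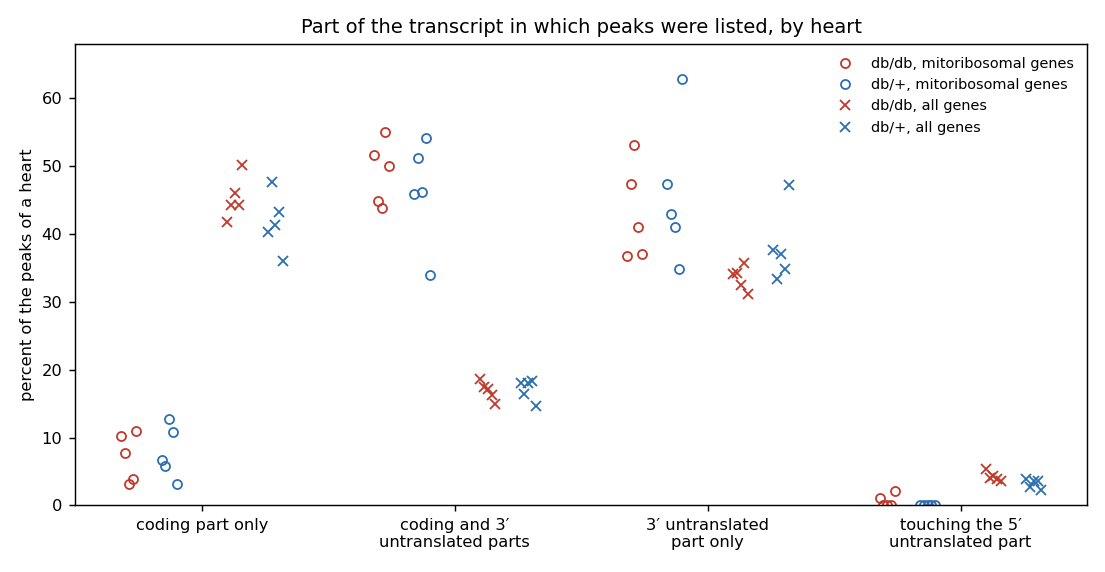
Percent of the m6A peaks of each heart by the part of the transcript in which they were listed, for the 78 mitochondrial ribosomal protein genes (circles) and for all genes (crosses), with db/db hearts in red left of db/+ hearts in blue. Peaks over coding and 3′ untranslated parts make up 34.0% to 55.1% of the peaks of the family and 14.7% to 18.7% of all peaks.

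Between the genotypes, peak presence was counted as differing where a gene had a peak in 4 or 5 hearts of either genotype and in 0 or 1 of its counterpart. Of 8059 genes with a peak in some heart 148 met this (1.84%), and of the 70 mitochondrial ribosomal protein genes 1 did. This was Mrps17, a small subunit protein with a bacterial counterpart, with a peak in db/db 2 alone among the db/db hearts, against db/+ 1, 2, 3 and 5. Its Fisher exact test gave p = 0.206 (two-sided, n = 5 hearts each), and its level was 3.50 ± 0.732 FPKM in db/db and 3.73 ± 0.443 FPKM in db/+ hearts. The smallest p that 5 against 5 hearts allow is 0.00794. After adjustment over the 8059 genes 0 passed 0.05 by Fisher's exact test, and 54 had an unadjusted p under 0.05. From that smallest p a gene can pass only if very many others reach it too. The 0 is therefore not read as an absence of differences. The count for the family was 2 with peaks of a fold of at least 2 and 0 with peaks of a listed p of at most 1e-05. Leaving out 1 heart gave 0 to 4, with 0 without db/+ 1, without db/+ 2 or without db/+ 3, 2 without db/db 2 or without db/+ 4, 3 without db/db 4 and 4 without db/db 1. With 1 heart removed, its genotype meets the lower limit of 4 hearts only if all that remain have a peak, and over all genes 190 of 196 went the same way, with fewer db/db hearts, without db/db 1, so the direction of these counts is not read. Mrps17 no longer met the rule without db/+ 5 either.

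Set beside the levels, 6 of the 7 called genes had a peak in 8 or more hearts: Mrpl21, Mrpl9 and Mrps7 in 10, Mrps30 in 9, and Mrpl37 and Mrps27 in 8, while Mrpl23 had none. Over the whole family 56.4% of the genes had a peak in that many hearts. Log2 fold changes had a median of -0.12 over the 44 genes with a peak in 8 or more hearts, -0.12 over the 26 with a peak in 1 to 7 hearts and -0.06 over the 8 with none. Calls were 6 of the 44, 0 of the 26 and 1 of the 8, and a link between peaks and levels was not tested. For each called gene with a peak the number of hearts with one differed by at most 1 between the genotypes.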

How the data were processed

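Input and m6A-immunoprecipitated RNA of 5 db/db and 5 db/+ mouse hearts was sequenced from stranded libraries, per the labels' protocols. The deposited expression table gives FPKM per gene and input, and the deposited peak lists give, per animal, the position of each peak, its fold enrichment and its p-value, as the authors' peak caller set them. The submitters' processing notes name FastQC 0.11.7, Trimmomatic 0.32, HISAT2 2.1.0 and mm9. For the FPKM program, the peak caller and the use of strand in counting: not given in the sources used here. Positions of genes, as deposited, fit GRCm38, on which coordinates are given. The files hold no counts, so the depth behind each FPKM is unknown and no counting interval is given. There were 0 unused columns of samples.

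From these, log2(FPKM + 1) of the 10344 genes that averaged 1 FPKM or more was fitted with limma 3.58.1 (trend; R 4.3.3), db/db minus db/+, with Benjamini-Hochberg adjusted p under 0.05 as the threshold. Fold changes are on the log2(FPKM + 1) scale, which understates those of low genes. The fit was tested on simulated data. Peak presence was compared with Fisher's exact test in Python 3.11.15 (scipy 1.17.1), peak starts were converted to count from 1, and repeats of a position were merged. The limit of 1500 bases for short transcripts was chosen after seeing the data.

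Genes named were those called, the 6 most positive and the 6 most negative among those whose genotypes do not overlap (or of all where fewer), the 3 highest and 3 lowest of each subunit, up to 10 with regular peaks, those with differing peak presence, called genes of the function lists (up to 4 by p), the Mrps18 genes and those with a heart apart from its group. Mrps11, Mrpl42, Tufm, Mrrf and the genes without a peak were named after their values were seen. The genes and lists were chosen with earlier results of these data known. Alternatives were the pseudocount, the filter, 3 scalings, the mitochondrial share as a covariate, a replicate block, robust moderation, peak thresholds and leaving out each heart.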

Additional observations from a re-analysis of the deposited data

Results flagged for a closer look

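Within each genotype, the highest or the lowest heart was compared with the other 4 by Dixon's ratio, whose critical value is 0.71. Chance flags about 1 in 20 groups, and 13 of the 156 groups of the 78 genes (8.33%) stood out, 11 of them through db/+ 5. In 10 of these db/+ 5 was the highest. Mrpl10 had 26.7 FPKM there (others 21.3 to 22.6), Mrpl15 5.58 (4.43 to 4.65), Mrpl28 72.7 (54.7 to 59.0) and Mrpl38 21.1 (14.3 to 15.6). Mrpl4 had 24.8 FPKM (19.02 to 19.99), Mrpl41 75.8 (51.3 to 54.6), Mrpl54 76.7 (54.2 to 56.8) and Mrpl55 58.1 (43.3 to 47.0). Mrps12 had 31.1 FPKM (24.0 to 25.6) and Mrps26 8.26 (4.89 to 5.54). Mrpl14 was the exception, with 25.7 FPKM in db/+ 5 against 46.0 to 52.7 in the other db/+ hearts.

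The heart db/db 2 had the highest Mrps34 of its genotype, 22.02 FPKM (others 14.9 to 15.5), and the lowest Mrps7, 21.99 FPKM (24.41 to 24.98). Among the peak lists, that of db/db 5 was the shortest with 8462 peaks (others of db/db 13821 to 15607), and that of db/+ 5 the longest with 20021 (others of db/+ 12385 to 14483). Whether these hearts differ in tissue taken, RNA or depth was not tested.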

How the results depend on the processing

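Of 285 values for the 15 non-overlapping genes over 19 alternatives, 197 kept direction and side of the threshold, 86 lost the threshold, 2 gained it and 0 reversed. Only the 7 called genes could lose the threshold, and only the others could gain it. As the 15 were picked for groups that did not overlap, only the 3 scalings and the covariate could have turned a sign. The 7 calls among the 78 genes became 1 when rescaled over nuclear genes, 1 with library medians set equal, 1 with quantile normalization and 0 with the mitochondrial share as a covariate, and were 9 of 71 at a mean of at least 5 FPKM. With the covariate 137 genes of all were called, against 311, and the medians were -0.057 (78 genes) and -0.050 (large subunit). Equal library medians left 9 genes without overlap. With the replicate block 0 of the 78 and 72 of all genes were called. Same-numbered hearts correlated at -0.105 to 0.03 in 5 pairs, and 0 of 5 were closest to their own number. This covers each library as a whole, and a pairing or batch that acts on some genes was not tested. Non-overlap uses no model, so the covariate, block and robust fits give no other value for it. Leaving out a heart cannot make separate groups overlap, so the count of 15 could then only stay or rise.

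Leaving out 1 heart gave 1 to 3 calls among the 78 and 112 to 315 of all, medians of -0.13 to -0.07 (all 78), -0.15 to -0.067 (large) and -0.13 to -0.06 (small), 15 to 18 genes without overlap, a subunit ratio of 2.45 to 2.49, 50.3 to 53.3 genes with a peak and 0 to 4 with differing presence. The ratio was 2.59 with Mrps30 and Mrps18a counted as large subunit and 1.62 from median genes. Genes with a peak averaged 51.4 per heart, and 42.3 at a listed p of at most 1e-05, where 0 differed in presence; at a fold of at least 2 the genes that differed were 2, Mrpl42 and Mrps17. Causes were not tested. Depth is unknown, so how far it limits the low genes and the peaks cannot be given.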
